A study of Mus musculus with 4 samples.

Results

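Aminoacyl-tRNA synthetases and the Atf4 amino-acid response were compared between effector CD4 cells of the central nervous system (CNS) and of draining lymph nodes (dLN). The 42 genes were chosen by name, with earlier results of these data known. They are the cytosolic synthetases, Atf4 with its partner factors and target regulators, and enzymes and transporters of amino acids. All 42 were found among the 23990 gene symbols of the deposited tables, and 20 of them encode synthetases. They fall into 8 roles and lie on 17 chromosomes.

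Experimental autoimmune encephalomyelitis (EAE) is a mouse model of multiple sclerosis that is started by immunization against myelin and in which CD4 T cells enter the spinal cord. Effector CD4 cells, defined as CD44+CD4, were sorted from wild type mice (C57BL/6 in the labels, C57BL/6J in the study's methods) given myelin oligodendrocyte glycoprotein (MOG) peptide in complete Freund's adjuvant with pertussis toxin. The CNS group was sorted from spinal cords and the dLN group from pooled lymph node cells, both at disease onset. There were 2 libraries per tissue and no group of unimmunized mice. According to the study's methods the sorted cells of both tissues were stimulated with PMA and ionomycin before RNA was isolated, whereas the labels describe RNA of cells used directly after the sort. The number, age and sex of the mice behind each library are not given in the sources used here, so p-values measure only the spread between these libraries.

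Levels are FPKM, in which fragments are divided by transcript length and by the depth of the library, summed over the transcripts of a gene. From the steps between low values the depth was estimated at 20895000 and 21626000 fragments for the CNS libraries and 18446500 and 22012000 for the dLN libraries. Between 88.7% and 92.2% of low values lay within 0.1 of a whole fragment. A log2 ratio below is CNS over dLN on the log2(FPKM + 1) scale, which understates the change of genes at low levels. A gene is called where its Benjamini-Hochberg adjusted p-value in limma, taken over all 10634 tested genes, was under 0.05.

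Transcripts of sex-linked genes split by tissue as well, and the genes named for this were chosen after their values had been seen. Y-linked Ddx3y was at 12.7 and 11.2 FPKM in CNS, while both dLN libraries list it at 0. Xist, the RNA of the inactive X chromosome, was at 26.6 and 22.3 FPKM in dLN, against 0 and 0.0026 FPKM in CNS. Tissue and the sex of the mice therefore cannot be told apart for any gene below.

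The sorted cells carried CD4 T cell transcripts in all 4 libraries. The 9 CD4 T cell markers found (Trac was not analysed here) summed to 3202 and 3213 FPKM in CNS and to 1486 and 1389 FPKM in dLN. Cd4 itself was at 502 and 531 FPKM in CNS and at 82.0 and 66.7 FPKM in dLN. Not all moved this way, as Cd44, a marker of the sort, was at 112 FPKM in both CNS libraries and at 176 and 157 FPKM in dLN, Cd5 was also called lower in CNS (log2 ratio -0.29), and Cd2 was not called. The call of Cd5 was lost without CNS library 1, without dLN library 1 or without dLN library 2, with log2 ratios from -0.33 to -0.21. Of the CD8 T cell markers, Cd8a was at or under 0.834 FPKM in each library and Cd8b1 was at 3.66 and 4.56 FPKM in CNS and 3.38 FPKM in both dLN libraries. The 5 NK cell markers summed to 2.63 and 5.42 FPKM in CNS and to 0.0865 and 0 FPKM in dLN, with Klrb1c the most abundant, and Klra1 was listed at 0 in each library. The 5 B cell markers found (Ighm was not analysed here) summed to 1.22 and 1.76 FPKM in CNS and to 0.432 and 0.258 FPKM in dLN, with Cd79b the most abundant and Pax5 listed at 0 in each. Klrb1c and Cd79b passed the filter on low values through CNS alone and could only be tested as higher. CNS library 2 stood apart in most myeloid markers. The 12 myeloid markers summed to 29.0 FPKM in CNS library 1, 274 FPKM in CNS library 2, and 4.59 and 4.22 FPKM in the dLN libraries. By the CNS mean and in CNS library 2, the most abundant was Lyz2, which encodes lysozyme. It was at 3.22 FPKM in CNS library 1 and 92.1 FPKM in CNS library 2, before Tyrobp at 1.84 and 55.9 FPKM and Fcer1g at 2.63 and 36.2 FPKM. In CNS library 1 the most abundant was Cx3cr1, at 5.54 FPKM, and C1qb was next at 3.57 FPKM. Cx3cr1 was not higher in CNS library 2, at 4.03 FPKM. Cd68 was lower in CNS library 1 (1.79 FPKM) than in the dLN libraries (3.87 and 3.68 FPKM), where it made up most of the sum. Csf1r, Aif1, Tyrobp and the C1q genes C1qa, C1qb and C1qc were listed at 0 in both dLN libraries. Of 8 neural markers, Mbp was the most abundant, at 48.6 and 44.5 FPKM in CNS and 55.5 and 57.7 FPKM in dLN, and Mog was at or under 0.0307 FPKM in each library. Gfap, of astrocytes, was at 0.655 and 2.51 FPKM in CNS and listed at 0 in dLN, and neuronal Snap25 was at 0.316 and 1.80 FPKM in CNS and at or under 0.0246 FPKM in dLN. The Mbp gene also makes Golli transcripts, which lymphocytes express.

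Aminoacyl-tRNA synthetases attach each amino acid to its tRNA, and several cytosolic synthetases are held together in a multisynthetase complex. When amino acids run short, uncharged tRNA activates the kinase Gcn2, phosphorylation of eIF2 slows general translation, and translation of Atf4 rises. Atf4 then drives genes for amino-acid synthesis, transport and tRNA charging, many of which T cells also induce when they are activated and grow. Because Atf4 is controlled largely through translation, its mRNA level is not a measure of its protein.

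Nearly the whole set was lower in CNS cells than in dLN cells. Of the 42 genes, 41 were tested, and 40 were called, of which 37 were lower and 3 were higher in CNS. Among all tested genes 74.9% were called, 37.2% as lower and 37.8% as higher in CNS, a split that shifted with the scaling of the libraries. A call as lower with a log2 ratio of -1 or below was reached by 33 of the 41 tested members and by 18.2% of all tested genes. Among genes called lower, it was reached by 33 of 37 members and by 1938 of 3952 genes. The median log2 ratio was -1.85 over the 20 synthetase genes and -2.01 over the 21 other members tested, beside 0.05 over all tested genes. Summed over the 42 genes, the level was 1349 and 1409 FPKM in CNS and 4773 and 4975 FPKM in dLN. This was 0.234% and 0.233% of all FPKM in CNS, against 0.926% and 0.97% in dLN. In bulk samples, fewer cells that express a gene and less of its RNA per cell cannot be told apart.

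**Figure D1:**
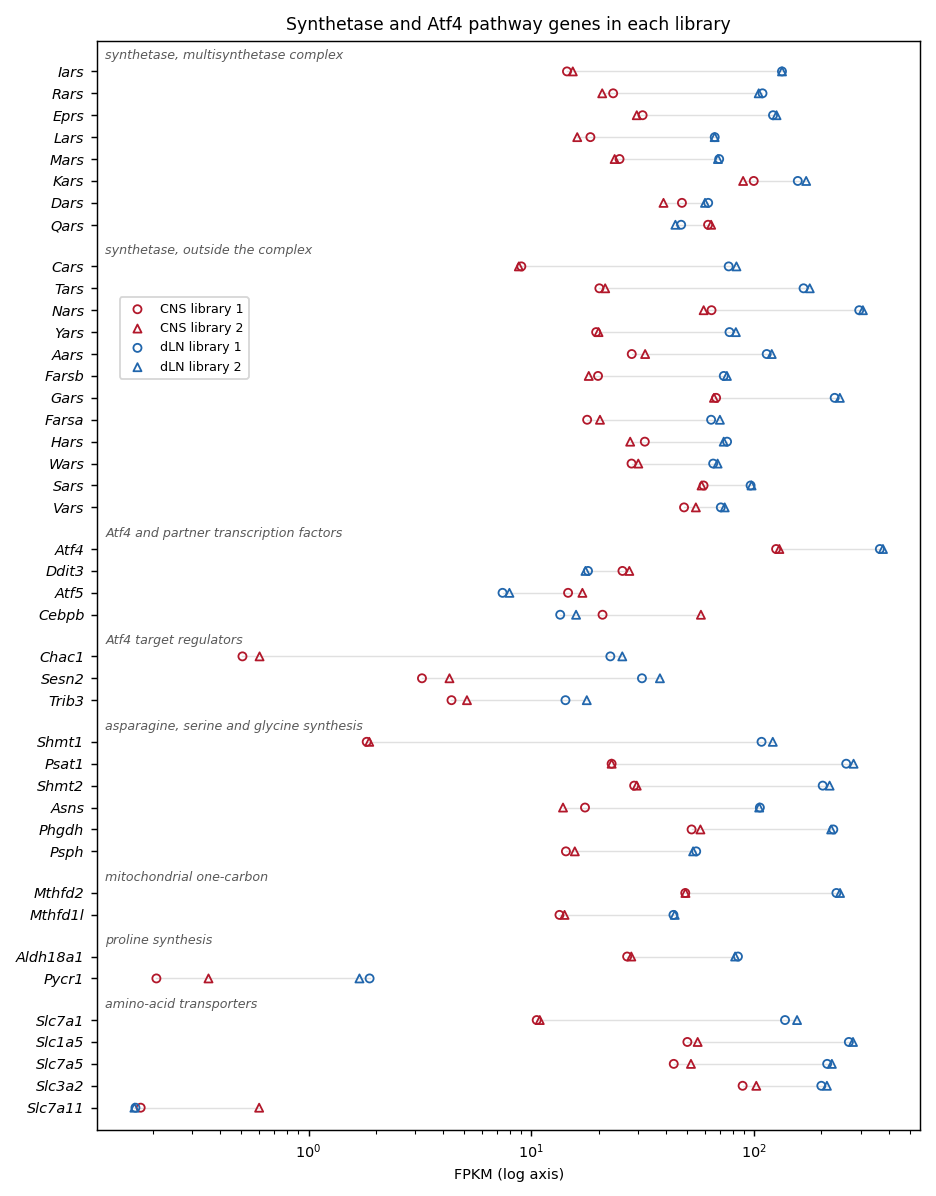
FPKM of the 42 genes in each library on a log axis, grouped by role and ordered within a role by log2 ratio. Red marks are the CNS libraries and blue marks the dLN libraries, with circles for library 1 and triangles for library 2. For most genes the red marks lie close together and to the left of the blue ones, and for Qars, Ddit3, Atf5, Cebpb and Slc7a11 they lie to the right.

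The filter on low values, a mean of at least 1 FPKM in at least one tissue, was passed in both tissues by 39 of the 42 genes. Chac1 and Pycr1 passed it through dLN alone, so they could only be tested as lower. Among the 39 others, 35 were called lower and 3 higher in CNS. Slc7a11 did not pass it and was not tested. Replicates were close for most members. Over the 42 genes, the median ratio of the higher to the lower library was 1.10 in CNS and 1.05 in dLN. The widest spread among the tested members was that of Cebpb in CNS, where the libraries differed 2.76-fold.

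**Figure D2:**
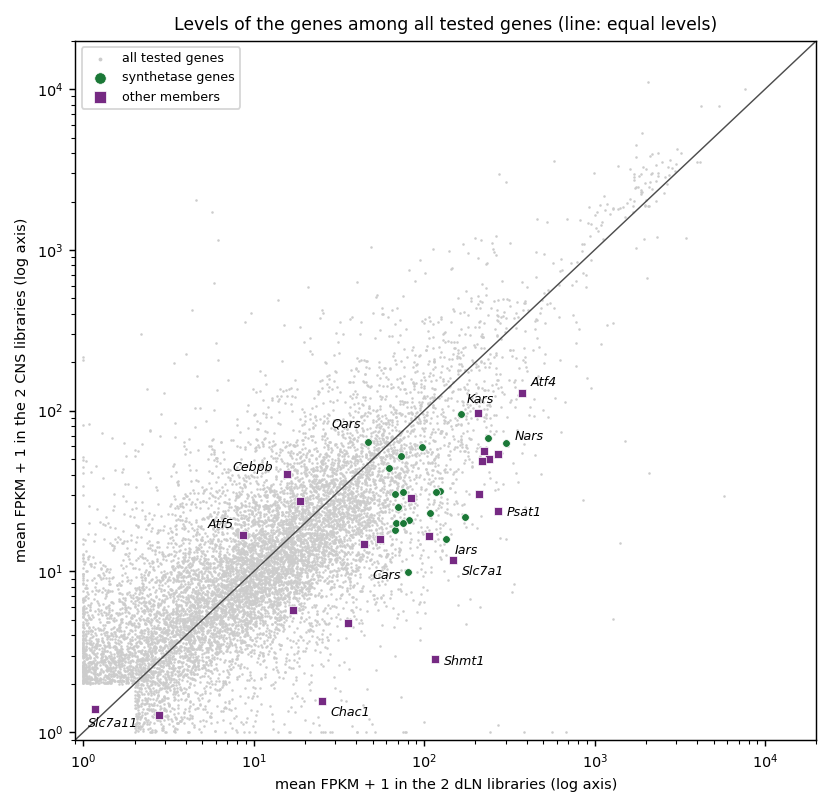
Mean FPKM + 1 of each tested gene in the 2 dLN libraries (x) and the 2 CNS libraries (y), both on log axes, with the line of equal levels. Grey points are all tested genes, green circles the synthetase genes and purple squares the other members, Slc7a11 included. Shmt1 and Chac1 lie farthest below the line among the members, and all synthetase genes other than Qars lie below it.

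The promoters of some members called lower in CNS are shown for letters tied to Atf4. RefSeq windows of build GRCm38.p6, from 250 bases before to 50 bases after the start, were matched by gene ID for 33 members (36 windows). No entry was matched for Lars, Rars, Cars, Hars, Nars, Vars, Wars, Slc7a5 and Slc1a5. The windows were searched on both strands for TGATGNAA, letters of the C/EBP-Atf response element (CARE) that Atf4 binds with a C/EBP partner, and for CACGTG, the E-box that Myc binds with Max. The first was found in 10 of the 33 members and in 3.97% of all 32851 windows in the table. The E-box was found in 5 of the 33 and in 7.15% of all windows. Matches of both kinds lay in Iars, Aars and Tars, and no match of the one kind overlapped the other. A match describes the letters only. Of the 33 matched members 28 were called lower in CNS, as were 9 of the 10 with CARE letters and all 5 with an E-box. Among the largest falls, Chac1 held the CARE letters, while the windows of Shmt1, Slc7a1 and Psat1 held neither kind. The windows below hold the CARE letters and belong to members whose values are given in the next paragraphs, with both kinds of match in capitals, each written 5′ to 3′ on the strand of the gene.
Iars, chr13:49681880-49682179, plus strand: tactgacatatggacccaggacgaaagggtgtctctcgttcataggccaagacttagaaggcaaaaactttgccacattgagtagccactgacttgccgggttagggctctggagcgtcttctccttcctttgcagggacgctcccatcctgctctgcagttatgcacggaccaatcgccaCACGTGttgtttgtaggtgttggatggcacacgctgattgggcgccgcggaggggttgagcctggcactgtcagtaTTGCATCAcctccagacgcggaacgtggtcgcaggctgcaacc
Tars, chr15:11399609-11399908, minus strand: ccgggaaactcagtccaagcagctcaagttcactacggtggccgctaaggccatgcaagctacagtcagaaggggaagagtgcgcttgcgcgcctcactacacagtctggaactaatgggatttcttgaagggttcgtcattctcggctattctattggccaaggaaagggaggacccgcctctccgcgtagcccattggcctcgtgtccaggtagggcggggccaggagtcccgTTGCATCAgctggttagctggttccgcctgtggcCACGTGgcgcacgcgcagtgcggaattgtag
Chac1, chr2:119350992-119351291, plus strand: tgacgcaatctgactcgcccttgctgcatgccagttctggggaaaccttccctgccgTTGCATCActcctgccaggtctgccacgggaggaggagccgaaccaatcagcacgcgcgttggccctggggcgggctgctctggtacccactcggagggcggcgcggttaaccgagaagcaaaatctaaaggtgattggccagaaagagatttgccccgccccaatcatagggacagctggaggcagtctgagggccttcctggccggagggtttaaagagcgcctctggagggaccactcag
Trib3, chr2:152344011-152344310, minus strand: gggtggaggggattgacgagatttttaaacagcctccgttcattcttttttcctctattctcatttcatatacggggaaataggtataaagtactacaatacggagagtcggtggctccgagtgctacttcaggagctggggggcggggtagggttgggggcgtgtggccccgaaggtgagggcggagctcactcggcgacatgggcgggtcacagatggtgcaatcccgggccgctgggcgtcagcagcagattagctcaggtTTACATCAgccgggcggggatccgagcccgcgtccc
Asns, chr6:7693160-7693459, minus strand: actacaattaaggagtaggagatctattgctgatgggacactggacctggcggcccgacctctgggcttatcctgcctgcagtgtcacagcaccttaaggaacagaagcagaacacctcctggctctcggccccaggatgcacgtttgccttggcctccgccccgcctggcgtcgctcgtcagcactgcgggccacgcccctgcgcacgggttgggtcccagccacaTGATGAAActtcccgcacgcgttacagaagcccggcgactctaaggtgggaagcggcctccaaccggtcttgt
Counted from the start, the CARE letters begin at 7 in Iars, -15 in Tars, -193 in Chac1, 14 in Trib3 and -23 in Asns. The E-box begins at -69 in Iars and at 19 in Tars. The start used for Asns lies 27 bases upstream of the start in the expression tables. The other members with CARE letters were Aars, Gars, Yars, Pycr1 and Slc7a11, and those with an E-box alone were Farsb and Aldh18a1.

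Among the 8 synthetases of the multisynthetase complex, 7 were lower and 1 was higher in CNS, and their median log2 ratio was -1.68. Iars (gene ID 105148, chromosome 13, 49682130 to 49734267 of mm10), the isoleucyl-tRNA synthetase, was at 14.4 and 15.3 FPKM in CNS and at 133 FPKM in both dLN libraries. Both CNS libraries were far below both dLN libraries, and the replicates of a tissue were nearly the same. Its log2 ratio was -3.08 (standard error 0.08, adjusted p = 8.12e-05), which with Cars and Tars below was among the 3 largest falls of the 20 synthetase genes. Rars, for arginine, had a log2 ratio of -2.23, Eprs, the joined synthetase for glutamate and proline, one of -1.98, Lars, for leucine, one of -1.89, and Mars, for methionine, one of -1.47. Kars, for lysine, was the most abundant synthetase in CNS, at 99.3 and 89.0 FPKM, and was at 157 and 171 FPKM in dLN. Its log2 ratio was -0.79, so that it fell less than the 5 synthetases before it. Dars, for aspartate, changed least among those that fell in the complex. It was at 47.3 and 39.1 FPKM in CNS and at 62.1 and 60.1 FPKM in dLN, without overlap. Its log2 ratio was -0.49 (standard error 0.12, adjusted p = 0.0138), and the call was lost without dLN library 1 (log2 ratio -0.47, adjusted p = 0.073) and without dLN library 2 (-0.52, adjusted p = 0.06).

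Qars (gene ID 97541, chromosome 9, 108508005 to 108515941), which charges the tRNA of glutamine, went against the other 19 synthetases. It was at 62.0 and 64.0 FPKM in CNS and at 46.9 and 44.2 FPKM in dLN. Both CNS libraries were above both dLN libraries, by more than the replicates differed. The log2 ratio was 0.46 (standard error 0.08, adjusted p = 0.00527), and it was 0.26 (adjusted p = 0.0353) with each library scaled to the same sum and 0.59 (adjusted p = 0.00167) with the same upper quartile. In the order of levels among the 20 synthetases, Qars ranked 3 in CNS and 20 in dLN.

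All 12 synthetase genes outside the complex were lower in CNS (median log2 ratio -1.86). Cars and Tars fell most. Cars, for cysteine, was at 9.01 and 8.78 FPKM in CNS, the lowest of the 20 synthetases there, and at 76.7 and 83.1 FPKM in dLN. Its log2 ratio was -3.03 (standard error 0.09, adjusted p = 8.12e-05). Tars (gene ID 110960, chromosome 15, 11383663 to 11399658), for threonine, whose window above holds both kinds of letters, was at 20.2 and 21.4 FPKM in CNS and at 166 and 177 FPKM in dLN. In both genes the dLN mean was over 8 times the CNS mean, and the libraries of a tissue lay close together. For Tars the log2 ratio was -2.99 (standard error 0.09, adjusted p = 8.12e-05). Nars, for asparagine, was the most abundant synthetase in dLN, at 295 and 307 FPKM, and was at 64.2 and 59.2 FPKM in CNS (log2 ratio -2.27).

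Of the remaining genes outside the complex, Yars for tyrosine (log2 ratio -1.96), Aars for alanine (-1.91), the phenylalanine subunits Farsb (-1.91) and Farsa (-1.76), and Gars for glycine (-1.81) fell by similar amounts. Farsa and Farsb encode the alpha and beta subunits of a single enzyme. Their means were 19.0 FPKM each in CNS and 67.0 FPKM for Farsa and 74.1 FPKM for Farsb in dLN. Gars ranked 2 among the synthetases in both tissues, and its mean was 66.6 ± 1.04 FPKM in CNS against 235 ± 8.90 FPKM in dLN (SD, n = 2 in each). Hars for histidine (-1.28), Wars for tryptophan (-1.17) and Sars for serine (-0.71) fell less. Vars, for valine, fell least. It was at 48.4 and 54.6 FPKM in CNS and at 70.7 and 73.6 FPKM in dLN, again without overlap. Its log2 ratio was -0.48 (standard error 0.10, adjusted p = 0.00765), and the call was lost without dLN library 2 (-0.45, adjusted p = 0.0524).

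The range from the lowest to the highest synthetase was therefore wider in CNS than in dLN, as a ratio. Per length of transcript, the highest mean among the 20 genes was 10.6 times the lowest in CNS, from 8.89 FPKM for Cars to 94.2 FPKM for Kars. In dLN the ratio was 6.60, from 45.6 FPKM for Qars to 301 FPKM for Nars. Their summed level was 735 and 714 FPKM in CNS and 2167 and 2242 FPKM in dLN. After Qars, Iars moved most in rank, from 19 in CNS to 5 in dLN, while Gars, Lars and Farsa held the same rank in both.

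**Figure D3:**
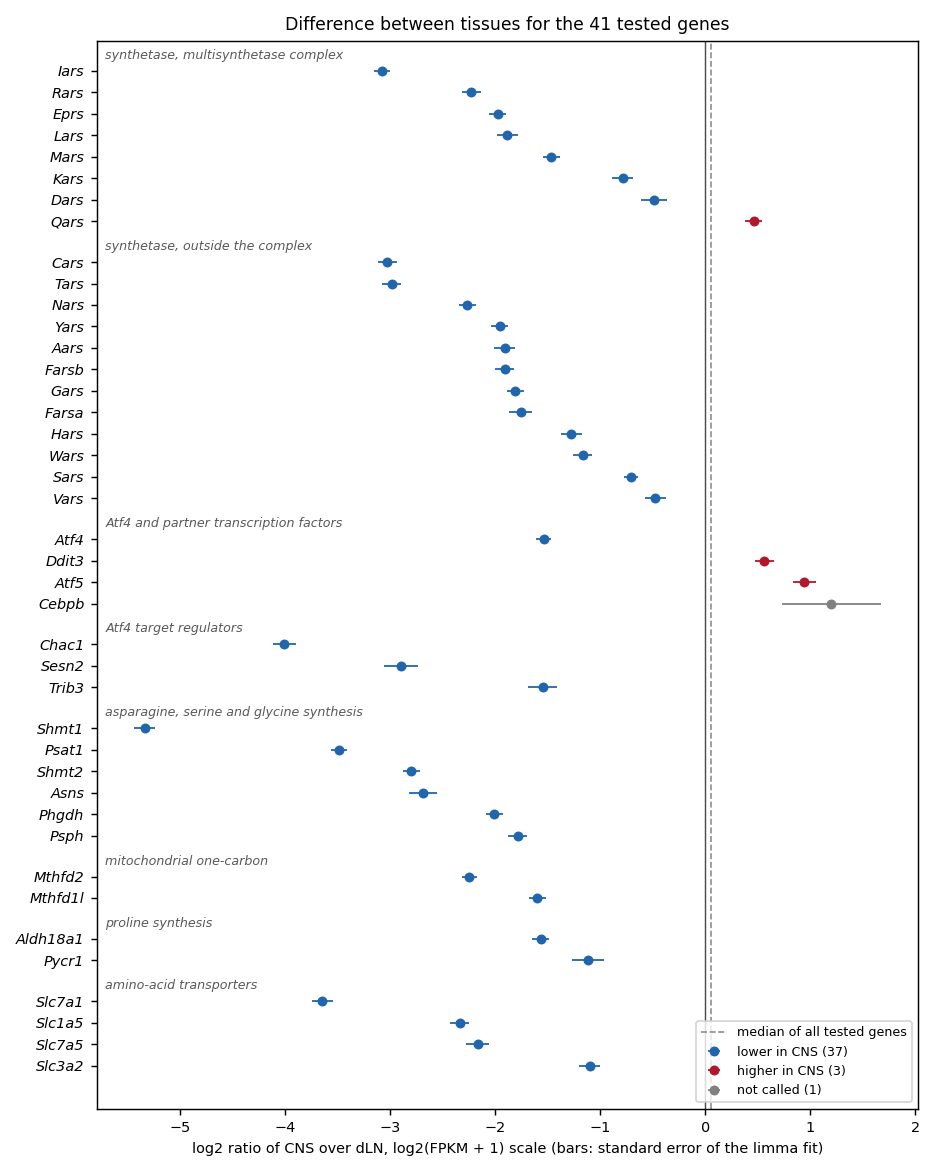
Log2 ratio of CNS over dLN for the 41 tested genes, by role, on the log2(FPKM + 1) scale. Bars are the standard error of the limma fit, and the dashed line is the median of all tested genes (0.05). The 37 blue points were called lower in CNS, the 3 red points (Qars, Ddit3 and Atf5) were called higher, and Cebpb in grey was not called.

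The 4 transcription factors did not move together. Atf4 (gene ID 11911, chromosome 15, 80255184 to 80257545), the factor at the centre of the response, was at 125 and 129 FPKM in CNS and at 366 and 378 FPKM in dLN. It was the most abundant of the 42 genes in both tissues, and its replicates differed by 1.03-fold in each tissue. The log2 ratio of Atf4 was -1.54 (standard error 0.07, adjusted p = 0.000107). Atf5, a related factor that is also induced through eIF2, went the other way. It was at 14.6 and 16.9 FPKM in CNS and at 7.42 and 7.96 FPKM in dLN (log2 ratio 0.94, standard error 0.11, adjusted p = 0.0012). Ddit3, which encodes CHOP, the factor of prolonged stress, was at 25.6 and 27.5 FPKM in CNS and at 17.9 and 17.5 FPKM in dLN. For Atf5 and Ddit3 both CNS libraries lay above both dLN libraries. For Ddit3 the log2 ratio was 0.56 (standard error 0.09, adjusted p = 0.00331), and with the same sum per library it was 0.37 (adjusted p = 0.0124).

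Cebpb encodes C/EBP-beta, a partner that can bind with Atf4. It was at 20.8 FPKM in CNS library 1, 57.6 FPKM in CNS library 2, and 13.5 and 15.9 FPKM in the dLN libraries. The value of CNS library 2 stood far above the other 3. With a log2 ratio of 1.20 and a standard error of 0.47, Cebpb was not called (adjusted p = 0.07). Without CNS library 1 it was 1.91 (adjusted p = 0.00704), and without CNS library 2 it was 0.48 (adjusted p = 0.0713). C/EBP-beta is also a factor of myeloid cells, and the library with the high Cebpb value is the one in which the 12 myeloid markers summed to 274 FPKM against 29.0 FPKM in CNS library 1. The part of myeloid transcripts in the Cebpb value was not tested. Without CNS library 2, 40 of the 41 tested members were still called, 37 of them lower in CNS.

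**Figure D4:**
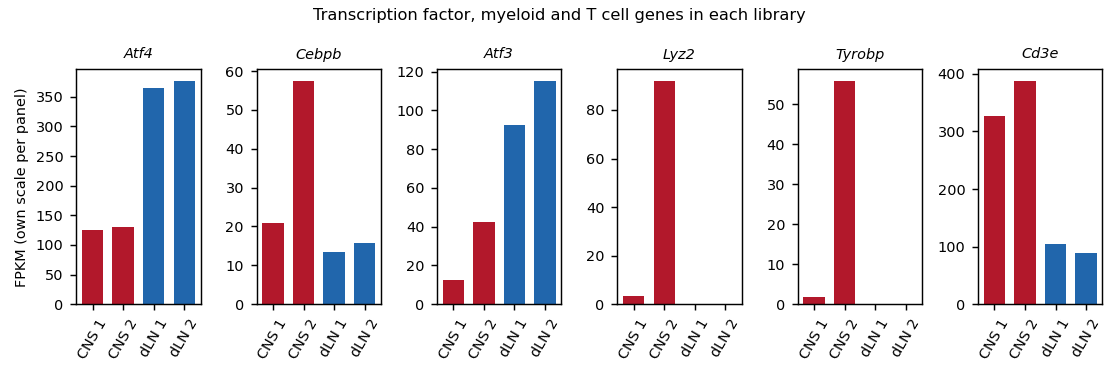
FPKM of Atf4, Cebpb, Atf3, the myeloid markers Lyz2 and Tyrobp, and the T cell marker Cd3e in each library, as bars from 0 with an own scale in each panel. CNS library 2 stands out in Cebpb, Atf3, Lyz2 and Tyrobp against CNS library 1, whereas Atf4 is nearly the same in both CNS libraries.

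All 3 regulators listed as Atf4 targets were lower in CNS, and their median log2 ratio was -2.90. Chac1 (gene ID 69065, chromosome 2, 119351242 to 119354327), an enzyme that breaks down glutathione, was at 0.505 and 0.603 FPKM in CNS and at 22.6 and 25.6 FPKM in dLN. It was thus barely read in CNS cells and plainly read in dLN cells. The dLN mean was 43.4 times the CNS mean, and the log2 ratio was -4.01 (standard error 0.11, adjusted p = 8.12e-05). Sesn2, which encodes the leucine-binding Sestrin2 that restrains mTORC1, was at 3.23 and 4.29 FPKM in CNS and 31.3 and 37.7 FPKM in dLN (log2 ratio -2.90). Trib3, a pseudokinase that feeds back on Atf4, was at 4.38 and 5.14 FPKM in CNS and 14.2 and 17.7 FPKM in dLN. It fell least of the 3, with a log2 ratio of -1.55 (standard error 0.14, adjusted p = 0.000562).

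The 6 genes of asparagine, serine and glycine synthesis were all lower in CNS, by at least 2-fold in each, and their median log2 ratio was -2.74. Shmt1 (gene ID 20425, chromosome 11, 60788897 to 60811265), the cytosolic enzyme that converts serine to glycine, was at 1.82 and 1.87 FPKM in CNS and at 108 and 121 FPKM in dLN. No other member differed as much, and both CNS values were close to each other. The dLN mean was 61.9 times the CNS mean, with a log2 ratio of -5.34 (standard error 0.10, adjusted p = 8.12e-05). In order of log2 ratio from the lowest, Shmt1 ranked 13 of the 10634 tested genes. Its mitochondrial counterpart Shmt2 was at 28.9 and 29.7 FPKM in CNS and at 203 and 218 FPKM in dLN (log2 ratio -2.80).

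The path from glucose to serine runs through Phgdh, Psat1 and Psph. Psat1, the aminotransferase of its middle step, was at 22.9 FPKM in both CNS libraries and at 258 and 279 FPKM in dLN. Its log2 ratio was -3.49 (standard error 0.08, adjusted p = 8.12e-05). Phgdh, the entry step, had a log2 ratio of -2.01 and Psph, the last step, one of -1.79, so the middle step fell most. Psph was at 14.3 and 15.6 FPKM in CNS and at 54.8 and 53.1 FPKM in dLN, the smallest change of the 6 genes. Asns, the asparagine synthetase and a textbook Atf4 target, was at 17.4 and 13.9 FPKM in CNS and at 106 and 105 FPKM in dLN (log2 ratio -2.69).

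Both mitochondrial one-carbon genes fell. Mthfd2, which oxidizes methylene-tetrahydrofolate made from serine, was at 49.0 and 49.1 FPKM in CNS and at 233 and 242 FPKM in dLN (log2 ratio -2.25). Mthfd1l, which releases formate from mitochondria, was at 13.4 and 14.1 FPKM in CNS and at 43.4 and 43.9 FPKM in dLN (log2 ratio -1.60). Replicates of these genes were close, and the tissues did not overlap. Of the 2 proline genes, Aldh18a1, which makes the glutamate semialdehyde for proline, was at 26.9 and 28.0 FPKM in CNS and at 84.4 and 82.0 FPKM in dLN (log2 ratio -1.57). Pycr1, the mitochondrial reductase of the last step, was low throughout, at 0.208 and 0.356 FPKM in CNS and at 1.88 and 1.69 FPKM in dLN. It was lower in both CNS libraries, with a log2 ratio of -1.12 that understates a mean 6.34 times higher in dLN.

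The 4 transporter genes tested were lower in CNS. Slc7a1 (gene ID 11987, chromosome 5, 148327410 to 148399904), the carrier of arginine and other cationic amino acids, was at 10.6 and 10.9 FPKM in CNS and at 137 and 155 FPKM in dLN. It fell most among the transporters, with a log2 ratio of -3.65 (standard error 0.10, adjusted p = 8.12e-05). Slc7a5 and Slc3a2 encode the light and heavy chains of the LAT1 carrier of large neutral amino acids. Slc7a5 was at 43.5 and 51.9 FPKM in CNS and at 212 and 223 FPKM in dLN (log2 ratio -2.17). Slc3a2, which also pairs with other light chains and is known as CD98, was at 88.6 and 102 FPKM in CNS and at 199.7 and 212 FPKM in dLN (log2 ratio -1.10). The heavy chain was thus above the light chain in both CNS libraries and slightly below it in both dLN libraries, per length of transcript. Slc1a5, the carrier of glutamine and other neutral amino acids, had a log2 ratio of -2.34. Slc7a11, the cystine carrier and another Atf4 target, was at 0.177 and 0.6 FPKM in CNS and at 0.167 and 0.165 FPKM in dLN, too low to be tested, and only CNS library 2 stood apart.

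Of the 9 other lists of the pathway, 92 of 104 genes were tested, and 51 were lower and 19 higher in CNS. That is 76.1% called, beside 74.9% of all tested genes. With a mean of 1 FPKM required in both tissues it was 44 lower and 20 higher of 83. The scaffolds of the multisynthetase complex split. Aimp2 (log2 ratio -1.92) and Eef1e1 (-2.88) were lower in CNS, in the direction of most of the synthetases they hold. Aimp1 was at 87.3 and 79.6 FPKM in CNS and at 65.3 and 61.7 FPKM in dLN (log2 ratio 0.39, adjusted p = 0.0129). Its call was lost without dLN library 2 (0.35, adjusted p = 0.0799) and with each library scaled to the same sum (0.19, adjusted p = 0.145).

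The mitochondrial synthetases, which charge tRNA inside mitochondria and are separate genes apart from Gars and Kars, moved less than the cytosolic ones. Of 17, 9 were lower, 3 higher and 5 not called, with a median log2 ratio of -0.44 beside -1.85 for the cytosolic genes. The share called was 70.6%, beside 74.9% of all tested genes. Lars2 was the exception in size. It was at 193 and 158 FPKM in CNS and at 25.6 and 32.7 FPKM in dLN (log2 ratio 2.55, standard error 0.16, adjusted p = 0.000203), whereas cytosolic Lars was lower. The next highest mean of the list in CNS was 17.9 FPKM, for Iars2. Whether reads of other RNA add to the Lars2 level was not tested. Yars2 had the largest fall (log2 ratio -2.16), and Iars2 at 18.3 and 17.5 FPKM in CNS and 17.9 and 15.4 FPKM in dLN overlapped between the tissues.

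**Figure D5:**
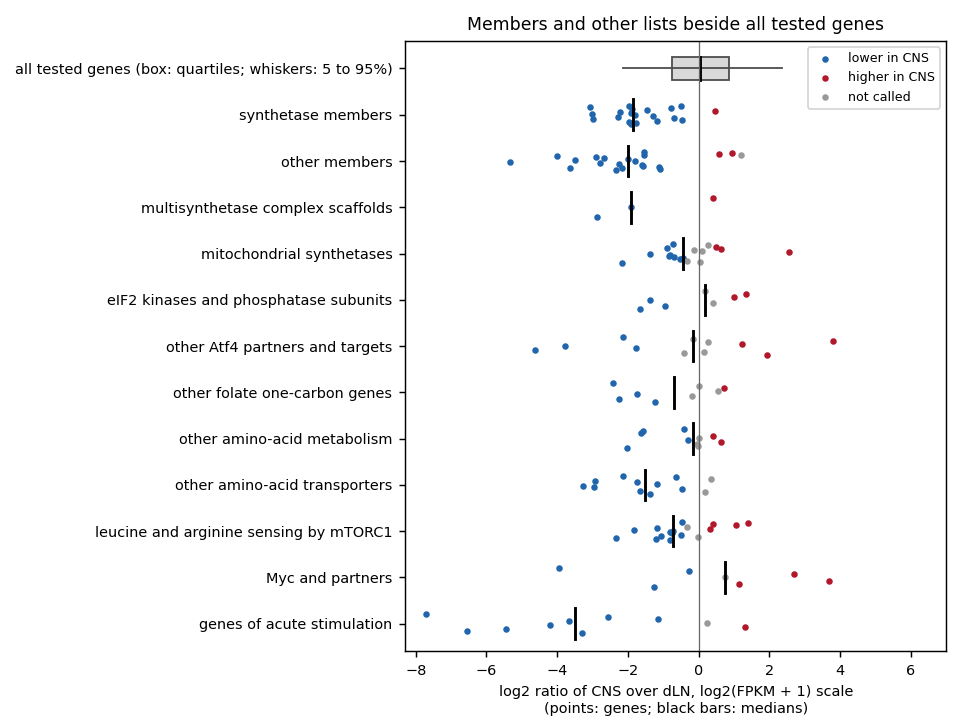
Log2 ratios of CNS over dLN for the genes of each list, beside all tested genes (box with quartiles, whiskers from 5 to 95%). Points are genes, coloured blue where called lower in CNS, red where called higher and grey where not called, and black bars are medians. The synthetase members (median -1.85) and the other members (median -2.01) lie mostly left of 0. Atf4 and its partner transcription factors are drawn among the other members, and their own median of 0.75 is not marked. The other transporters and the genes of acute stimulation also lie mostly left of 0, while the mitochondrial synthetases and the Myc partners spread to both sides.

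Upstream of Atf4, the eIF2 kinases differed from each other. Eif2ak4, which encodes Gcn2, the sensor of uncharged tRNA, was at 1.80 and 1.93 FPKM in CNS and at 6.42 and 6.50 FPKM in dLN (log2 ratio -1.38). Eif2ak2, the kinase PKR of double-stranded RNA, was at 4.61 and 5.16 FPKM in CNS and at 1.62 and 1.09 FPKM in dLN (log2 ratio 1.33). Eif2ak3, the kinase PERK of the endoplasmic reticulum, was at 11.2 and 11.7 FPKM in CNS and at 6.24 and 4.32 FPKM in dLN (log2 ratio 1.01). Its call was lost without CNS library 1 (1.04, adjusted p = 0.0509) and without CNS library 2 (0.97, adjusted p = 0.0565). Eif2ak1, the heme-regulated kinase, was at 25.8 and 26.2 FPKM in CNS and 23.4 and 22.1 FPKM in dLN and was not called. Of the phosphatase subunits, Ppp1r15b was lower in CNS (log2 ratio -0.95), and the stress-induced Ppp1r15a was at 103 and 155 FPKM in CNS and at 87.4 and 103 FPKM in dLN and was not called. The eIF2 subunit Eif2s1 was lower (-1.65).

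The other Atf4 partners and targets went both ways, with 4 lower, 3 higher and 4 not called of 11 tested. That is 63.6% called, beside 74.9% of all tested genes. Among the 8 that passed the filter in both tissues, 1 (Atf3) was lower and 3 were higher. Bcat1, the cytosolic enzyme that starts the breakdown of branched-chain amino acids, was at 0.658 and 1.05 FPKM in CNS and at 42.7 and 47.4 FPKM in dLN (log2 ratio -4.64). Cth, which makes cysteine from cystathionine, was listed at 0 in both CNS libraries and at 12.3 and 13.4 FPKM in dLN. These genes were thus near or at the bottom of the scale in CNS. With Gpt2, they passed the filter through dLN alone and could only be tested as lower. Ddit4, which encodes the mTORC1 inhibitor REDD1, was opposite, at 176 and 229.9 FPKM in CNS and 16.0 and 11.4 FPKM in dLN (log2 ratio 3.80). Atf3, a stress-induced factor, was at 12.2 and 42.2 FPKM in CNS and at 92.5 and 115 FPKM in dLN. Its log2 ratio of -2.13 (adjusted p = 0.0211) depended on single libraries. It was -2.98 without CNS library 2 and -1.27 without CNS library 1, both called, and the call was lost without dLN library 1 (-2.28, adjusted p = 0.0661), without dLN library 2 (-1.97, adjusted p = 0.0974) and with no filter on low values. Like Cebpb, Atf3 was higher in the CNS library with more myeloid transcripts, whose part in it was not tested. Sqstm1 was at 128 and 158 FPKM in CNS and at 126 and 133 FPKM in dLN and was not called, and Fgf21 was listed at 0 in all 4 libraries.

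Among other amino-acid transporters, 10 of 12 tested were lower in CNS, none was higher, and the median log2 ratio was -1.52. The share called was 83.3%, beside 74.9% of all tested genes, of which 37.2% were lower. Of these, Slc7a3, Slc6a9, Slc43a1 and Slc16a10 passed the filter through dLN alone and could only be tested as lower. This leaves 6 lower of the 7 that passed it in both tissues. Of the 6, Slc6a6 (log2 ratio -0.48) lost its call without dLN library 1 (-0.50) or without dLN library 2 (-0.47). Slc1a4, a carrier of serine and alanine, was at 1.08 and 1.47 FPKM in CNS and at 19.8 and 21.6 FPKM in dLN (log2 ratio -3.26). The glycine carrier Slc6a9 (-2.96) and the arginine carrier Slc7a3 (-2.94) were at or under 0.187 FPKM in each CNS library, against 7.12 to 8.42 FPKM in the dLN libraries. Slc38a1, a glutamine carrier, was the most abundant of the list in dLN, at 74.5 and 79.5 FPKM, and was at 17.0 and 16.4 FPKM in CNS (log2 ratio -2.14).

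Of 8 other folate genes tested, 4 were lower and 1 was higher in CNS, so 62.5% were called, beside 74.9% of all tested genes. Mthfd1, the cytosolic enzyme that takes up formate (log2 ratio -2.41), and the purine synthesis enzyme Gart (-2.24), which uses its product, fell by about as much as Mthfd2. Of 10 other genes of amino-acid metabolism tested, 5 were lower and 2 higher, so 70.0% were called. Odc1, the first enzyme of polyamine synthesis, was at 176 and 202 FPKM in CNS and at 784 and 772 FPKM in dLN (log2 ratio -2.04).

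Of 17 tested genes by which mTORC1 senses leucine and arginine, 11 were lower and 4 higher (Castor1 and Castor2 were not analysed here), beside 37.2% lower and 37.8% higher over all tested genes. Of these calls, those of Depdc5 and Wdr24 (higher) and Sesn1 (lower) were each lost without CNS library 1, without dLN library 1 or without dLN library 2, with log2 ratios from 0.33 to 0.44, from 0.26 to 0.39 and from -0.55 to -0.36. Wdr24 was also lost without CNS library 2 (0.28). With the same sum per library, the calls of both Wdr24 (0.16, adjusted p = 0.227) and Depdc5 (0.25, adjusted p = 0.132) were lost. Rragd, a Rag GTPase, fell most (log2 ratio -2.35), from 5.82 and 6.48 FPKM in dLN to 0.371 and 0.437 FPKM in CNS, but it passed the filter through dLN alone and could only be tested as lower. Sesn3 was higher in CNS, at 27.3 and 30.3 FPKM against 10.5 and 10.4 FPKM in dLN (log2 ratio 1.38), whereas its relative Sesn2 was lower. Mtor itself had a log2 ratio of -0.76.

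Myc, which drives growth genes including many of these enzymes in activated T cells, was at 22.1 and 26.5 FPKM in CNS and at 363 and 417 FPKM in dLN. The log2 ratio of Myc was -3.95 (standard error 0.13, adjusted p = 8.12e-05). Among its antagonists, Mnt was lower as well, at 6.36 and 7.04 FPKM in CNS and 17.0 and 18.1 FPKM in dLN (log2 ratio -1.27), whereas Mxd4 and Mxd1 were higher. Mxd4 was at 28.7 and 36.0 FPKM in CNS and at 2.23 and 1.09 FPKM in dLN (log2 ratio 3.67), and Mxd1 at 36.5 and 47.9 FPKM in CNS and at 6.59 and 4.88 FPKM in dLN (2.68). For all 4 genes the tissues did not overlap.

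Most genes of acute stimulation were lower in CNS, as most members were. Of 10, 8 were lower and 1 was higher in CNS, beside 37.2% lower and 37.8% higher over all tested genes. Their median log2 ratio was -3.49, and the list summed to 1053 and 1394 FPKM in CNS and to 9505 and 11218 FPKM in dLN. Il2, the most abundant in dLN, was at 18.2 and 38.8 FPKM in CNS and at 5363 and 6176 FPKM in dLN (log2 ratio -7.70). Tnfsf8 (-6.55) and Il3 (-5.46) were lower as well. The call of Nr4a1 was lost without CNS library 1 (-0.75, adjusted p = 0.0947) and without dLN library 2 (-0.93, adjusted p = 0.111). Not all of the list fell. Egr1 was at 83.1 and 123 FPKM in CNS and at 75.7 and 98.5 FPKM in dLN, overlapping and not called, and Cd69 was higher in CNS, at 516 and 510.0 FPKM in CNS and at 189 and 221 FPKM in dLN (log2 ratio 1.32). None of the list was at 0 in any library. The part of stimulation in the result for the synthetase and Atf4 pathway genes was not tested, and tissue and handling of the cells cannot be told apart in this design.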

How the data were processed

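RNA was measured in 4 libraries of sorted CD44+CD4 cells, 2 from CNS and 2 from dLN (TruSeq RNA V2, HiSeq). Reads were trimmed and mapped by the authors, and the deposited values are FPKM of 33819 RefSeq transcripts (build mm10), in a table per tissue. The aligner and the program that computed FPKM are not given in the sources used here. In the CNS table both library names share a header cell, and the values were taken in the order of the names. FPKM times length summed to between 0.933 and 0.969 of the nominal total in each library, so each was scaled by its own total and the tables were compared.

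FPKM was summed by gene symbol, leaving out 565 transcripts without a symbol (0.142% to 0.446% of FPKM). Summing does not separate reads of near-identical copies or overlapping genes. Starts were turned to count from 1. The test was limma 3.58.1 in R 4.3.3 (lmFit, eBayes with trend, two-sided), with no term but tissue, on log2(FPKM + 1) of the genes whose mean reached 1 FPKM in CNS or dLN. The code was first run on simulated data. An exact test of 2 against 2 libraries cannot go below p = 0.333. Depth was estimated from steps of low FPKM after taking 150 to 190 bases off the length, and counting error adds to each value. Every member is named, and list genes were named first by size of change and by level. Some list genes are not reported here. Members and lists were chosen with earlier results of these data known. Alternatives were other pseudocounts, filters and scalings, the highest transcript, a replicate block, no trend, a minimum ratio and leaving out each library. Promoter windows came from RefSeq. Python 3.11.15 with pandas 2.3.3 did the rest.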

Additional observations from a re-analysis of the deposited data

How the results depend on the processing

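The count of members called was 40 and lay between 38 and 41 when each library was left out in turn, and 39 with a mean of at least 1 FPKM required in both tissues, where Chac1 and Pycr1 drop out and Cebpb gains a call (adjusted p = 0.0492). Of 572 refits of single members, 565 kept direction and side of the threshold, 3 lost the call (Dars, Vars) and 4 gained it (Cebpb), and none turned direction. A change of at least 2-fold asked in addition left 33 members and, over all genes, 4168 calls in place of 7968, since fewer genes pass a further criterion. Over all genes the count was 6596 to 7363 without 1 library. In the other lists of the pathway, 70 genes were called, and 57 to 67 without 1 library. Scaling to the same sum moved the median of all genes by -0.18 and scaling to the same upper quartile by 0.12. Over all genes, 4522 were then lower and 3423 higher, and 3569 lower and 4468 higher. The synthetase median of -1.85 was then -2.04 and -1.72, and that of the other members -2.21 and -1.88 in place of -2.01. The latter was -2.19 at a pseudocount of 0.1, where low genes count for more, and -1.90 without a filter, where Slc7a11 joins. Without 1 library the medians stayed between -1.87 and -1.82 and between -2.08 and -1.95.

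The labels number the libraries of both tissues 1 and 2, but replicate differences had a correlation of 0.0933 across genes and no source describes a pairing. With a replicate block 7828 genes and 41 members were called, the added member being Cebpb (log2 ratio 1.20, adjusted p = 0.0288), and 69 genes of the other lists. The medians were -1.85 and -2.01. With 1 library of a tissue left, its spread is taken from the other tissue. Sequencing of 18446500 to 22012000 fragments leaves little to measure in genes such as Slc7a11, Pycr1 and, in CNS, Chac1.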

Other observations

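Of the 42 genes, 18 have more than 1 transcript in the tables. The split of reads between transcripts of a gene is an estimate of the program that computed FPKM, and since the transcripts differ in length, the sums used above can shift with it. For Atf4 the transcript of 1446 bases held 62.2% of the level in CNS library 1 and 35.0% in CNS library 2, against 43.7% and 41.6% in the dLN libraries, although the sums of both transcripts were 125 and 129 FPKM in CNS. The CNS libraries thus differ more in the split than in the sum. For Atf5, the transcript of 1816 bases held 81.8% and 97.6% of the level in CNS and nearly all of it in dLN, where the transcript of 1736 bases was close to 0. It was at 2.65 and 0.406 FPKM in CNS.

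For several other members the split shifted in the same way in both libraries of a tissue. The longer transcript of Cars, of 3222 bases, held 2.98% and 3.09% of the level in CNS and 9.33% and 11.0% in dLN, and that of Mars, of 2963 bases, 7.30% and 9.09% in CNS and 15.1% and 16.8% in dLN. The transcript of Slc3a2 that starts farther upstream, of 2813 bases, held 2.02% and 2.36% in CNS and 0.398% and 0.469% in dLN. For Kars, whose transcripts differ in whether a mitochondrial form can be made, the transcript of 2043 bases held between 86.1% and 91.6% in all 4 libraries. These shares were not tested, and they were picked after all had been seen.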
